A study of Cricetulus griseus with 8 samples.

Results

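The collagen genes of LR73 cells were taken as every row of the deposited table whose symbol is Col, a number, the letter a and a number, which gave 38 of 26776 named genes. Of these, 15 had a mean of at least 10 normalized counts over the 8 libraries and were tested, 18 had reads but a lower mean, and 5 had no reads. A normalized count is the number of reads of a gene divided by 1 size factor per library. LR73 is an adherent line derived from Chinese hamster ovary cells, given as fibroblast in the labels, which takes up dying cells and serves as a phagocyte. In 4 libraries the LR73 cells were kept alone, and in the other 4 they shared their culture with apoptotic Jurkat cells, a human T cell leukaemia line. Per the labels, the Jurkat cells received UV-C light at 1500 mJ and were then held in culture for 4 h before they met the phagocytes. Both groups grew in alpha-MEM with fetal bovine serum, and both sets of column names carry the letters GFP, which the labels do not explain. The libraries of a group are called biological replicates in the series' design text, but how the cultures were separated is not given, so p-values measure the spread between these libraries.

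Collagens are extracellular proteins built of 3 chains wound into a triple helix, and each chain has its own gene. Fibrillar collagens form the rope-like fibres of connective tissue, network collagens form the sheets of basement membranes, collagen VI forms beaded filaments around cells, and collagen VII forms the anchoring fibrils that tie epithelial basement membranes to the tissue below. New chains are hydroxylated on proline and lysine in the endoplasmic reticulum, folded with the help of dedicated chaperones, exported, trimmed of their propeptides and crosslinked outside the cell. Fibroblasts are the main makers of collagen in most tissues, and types I and III are their usual products.

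With apoptotic cells, 4 of the 15 tested collagen genes rose and 4 fell by limma at an adjusted p under 0.05, and 7 did not pass. The collagen VI genes Col6a1 and Col6a2 rose, by 0.58 (SE 0.04) and 0.42 (SE 0.03) as a log2 change of (normalized count + 1), together with the collagen V chains Col5a2 and Col5a3. The other tested collagen VI gene, Col6a3, did not pass. The collagen VII gene Col7a1 fell by 0.34 (SE 0.05), and Col8a1, Col16a1 and Col11a2 fell as well. Of all 13494 genes tested, 11.7% were called, 6.36% higher and 5.31% lower, and the groups did not overlap in 21.2%. Among the collagens the groups did not overlap in 8 of 15, the same 8 that were called. The median log2 change was 0.10 for the tested collagens and 0.0015 for all tested genes, and the median size of the change, regardless of sign, was 0.19 and 0.10. On reads recovered from the table, edgeR and DESeq2 each gave 4 higher and 4 lower collagens, where edgeR called 11.6% of all genes and DESeq2 12.2%. In the authors' deposited table, 14 of the 15 collagens have an adjusted p, and 4 are higher and 4 lower at the same threshold, the same 8 genes in the same directions, beside 12.2% of all genes called there. Sizes differed for genes with low counts. The deposited log2 changes were 0.31 for Col5a3, -0.38 for Col11a2 and 0.13 for the uncalled Col3a1, against 0.63, -0.59 and 0.57 by limma. Those of Col6a1 (0.55) and Col7a1 (-0.31) lay closer to the limma values. The cause was not tested.

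Depth ran from 22.7 to 29.7 M (mega) reads over named genes per library, and tested genes with a mean of at least 1000 had a median SE of 0.05 for the log2 change. Alone library 1 stood apart, at -25.1 on the leading principal component where the other alone libraries lay between -9.13 and -5.65. Without it, 4 collagens were higher and 5 lower by limma, while 26.0% of all genes were called. Without co-culture library 1, 3 were higher and 2 lower beside 5.72% of all genes, and leaving out each of the other libraries gave 3 or 4 in either direction beside 6.12 to 9.87% of all genes. Of 15 fibroblast markers outside the collagens, 10 were tested, while Thy1, Tcf21 and Pdpn had no reads. Of the 10, 1 rose (Vim) and 1 fell (Dcn), 3 were lower at an unadjusted p under 0.05 (Dcn, Sparc and S100a4), and the median log2 change of the 10 was 0.03. The share of all tested genes at that unadjusted threshold is not given here. Vim, the intermediate filament vimentin, stood at 111964 ± 4744 and 130760 ± 1360 normalized counts (SD, n = 4 per group; log2 change 0.22, SE 0.03, limma adjusted p = 0.00281) and makes up most of the summed level of the list, which ran from 154259 to 157759 in cells alone and from 175470 to 177676 in co-cultures. Of 19 T cell markers in the table, 14 had 5 or fewer reads in all cells alone together, and these summed to 6 reads alone and 48 with apoptotic cells. They were picked by their low reads in cells alone, which favours a higher sum in co-cultures, so these sums do not test a rise. Cd4, outside this cut and not tested, had 7 reads alone and 5 with apoptotic cells. Of the 14, 10 had more reads in co-cultures and 0 had fewer. Cd3d, Cd3g and Cd2 were at 0 in every library and Cd3e at 0 alone and 2 reads with apoptotic cells. Lck, Zap70, Bcl11b and Ikzf1 had 0 reads alone and 9, 5, 5 and 3 with apoptotic cells. Ptprc, the leukocyte phosphatase CD45, had 3 reads alone and 14 with apoptotic cells. The 4 tested T cell markers included 2 that fell, Cd28 and Themis. Cd28 missed the threshold without alone library 3 or 4 or any of the co-culture libraries (adjusted p = 0.0642 to 0.0999) and in DESeq2 (adjusted p = 0.115). The summed level of the whole list was 1483 to 1582 alone and 1344 to 1402 with apoptotic cells. Most of that sum lay in Tcf7, Themis and Lat, with means of 677, 631 and 204 normalized counts in cells alone. The sum therefore does not follow the trace T cell markers. Summed epithelial markers ran from 312 to 339 alone and 267 to 302 with apoptotic cells, and Epcam had 1 read in each group. Most of this sum lay in Cdh1 and Krt5, the latter with a mean of 82.1 normalized counts alone. Of the 2 tested, Cdh1, the cell adhesion protein E-cadherin, fell, with 242 ± 8.41 normalized counts alone and 206 ± 12.0 with apoptotic cells (SD, n = 4 per group; log2 change -0.23, SE 0.07, limma adjusted p = 0.0439). It missed the threshold without any 1 library other than alone library 1 (adjusted p = 0.0554 to 0.13) and in DESeq2 (adjusted p = 0.0933). Summed myeloid markers ran from 59.8 to 99.2 alone and from 65.2 to 94.5 with apoptotic cells, and none of 3 tested passed. The part of such transcripts in the collagen results was not tested. In bulk RNA, fewer cells that express a gene and less RNA per cell cannot be told apart.

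**Figure D1:**
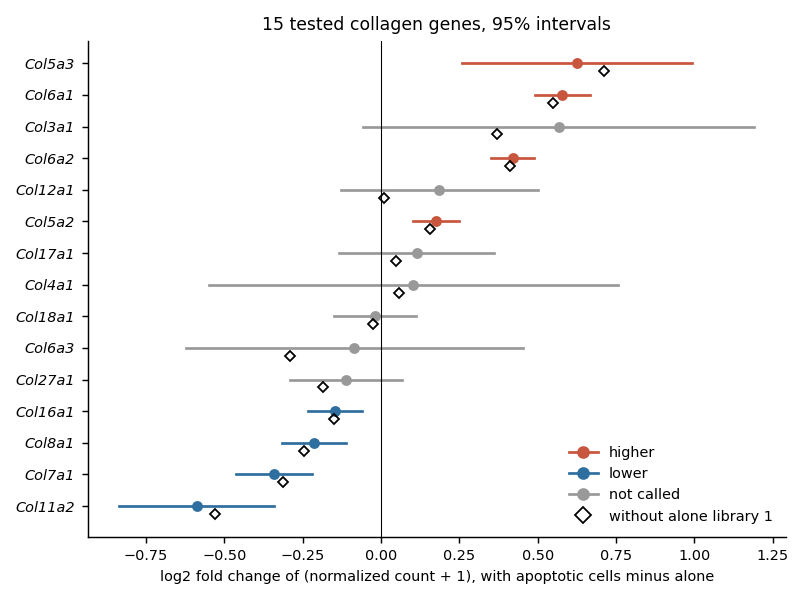
Log2 change of (normalized count + 1), with apoptotic cells minus alone, for the 15 tested collagen genes, with 95% limma intervals; open diamonds give the value without alone library 1. Col6a1 (0.58) and Col6a2 (0.42) have narrow intervals above 0, Col7a1 (-0.34) and Col11a2 (-0.59) lie below 0, and the diamond of Col12a1 moves to 0.01.

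The collagen VI genes Col6a1 and Col6a2 showed the smallest adjusted p-values among the collagens, while Col6a3 did not pass. The usual trimer of collagen VI holds the chains of Col6a1, Col6a2 and Col6a3, and the protein surrounds cells as a beaded filament that binds both the basement membrane and fibrillar collagen. Col6a1 stood at 8825, 9413, 9459 and 9974 normalized counts in alone libraries 1 to 4 and at 14368, 13557, 13949 and 14349.8 in co-culture libraries 1 to 4. The lowest co-culture library lay well above the highest alone library, and the mean went from 9418 ± 470 to 14056 ± 385 (SD, n = 4 per group), a log2 change of 0.58 (95% interval 0.49 to 0.67, limma adjusted p = 2.02e-05), or 49.3% on that scale.

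Col6a2 read 4106, 4090.2, 4199.5 and 4309 normalized counts in cells alone and 5643, 5455, 5582 and 5659 in co-cultures. The 4 values of each group lay close together and the groups were far apart, at 4176 ± 101 and 5585 ± 92.9 (SD, n = 4 per group), a log2 change of 0.42 (95% interval 0.35 to 0.49, limma adjusted p = 3.21e-05). In the RefSeq gene table for the species, Col6a1 and Col6a2 are direct neighbours on 1 chromosome, as are Col4a1 and Col4a2. Both collagen VI calls held without any 1 library and in all 18 alternatives.

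Col6a3, the third and longest chain of the usual trimer, had 131 reads in all alone libraries together and 107 in the co-cultures. It stood at 19.0, 35.8, 24.4 and 45.5 normalized counts alone and at 29.6, 27.6, 29.7 and 24.5 with apoptotic cells. The alone libraries spread widely around the co-cultures, and the log2 change of -0.09 had a 95% interval of -0.62 to 0.45 (limma adjusted p = 0.848), which holds changes as large as that of Col6a2 in either direction. The SD of its log2 values was 0.54 among the alone libraries and 0.13 among the co-cultures. Its sign turned without alone library 2 or alone library 4 (0.005 and 0.12). Transcript lengths were not used here, so levels are compared within a gene and not between genes. The further collagen VI chains Col6a5 and Col6a6 had mean levels of 0.14 and 3.35 normalized counts and were not tested.

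The ratio of partner chains was followed per library, since the length of a gene cancels when its ratio is compared between groups. Normalized counts of Col6a1 were 2.15, 2.30, 2.25 and 2.31 times those of Col6a2 in cells alone and 2.55, 2.49, 2.50 and 2.54 times in co-cultures. Each co-culture library had a higher ratio than each alone library, and the log2 ratio differed by 0.16 between the group means, 1.17 ± 0.05 and 1.33 ± 0.02 (SD, n = 4 per group; exact two-sided permutation p = 0.0286, the smallest that 4 against 4 libraries can give, and 0.0571 when adjusted over the 2 pairs compared, which misses 0.05). Col6a3 relative to Col6a2, the other pair compared, differed by -0.51 on the log2 scale (-7.10 ± 0.52 and -7.60 ± 0.13, SD, n = 4 per group; exact two-sided permutation p = 0.143, adjusted p = 0.143). Neither ratio passed. A pair at the smallest possible p cannot pass after this adjustment unless the other pair reaches that p too. The miss for Col6a1 to Col6a2 therefore does not show an unchanged ratio. The ratios of Col6a1 to Col6a3 and of Col5a2 to Col5a3 were not computed.

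**Figure D2:**
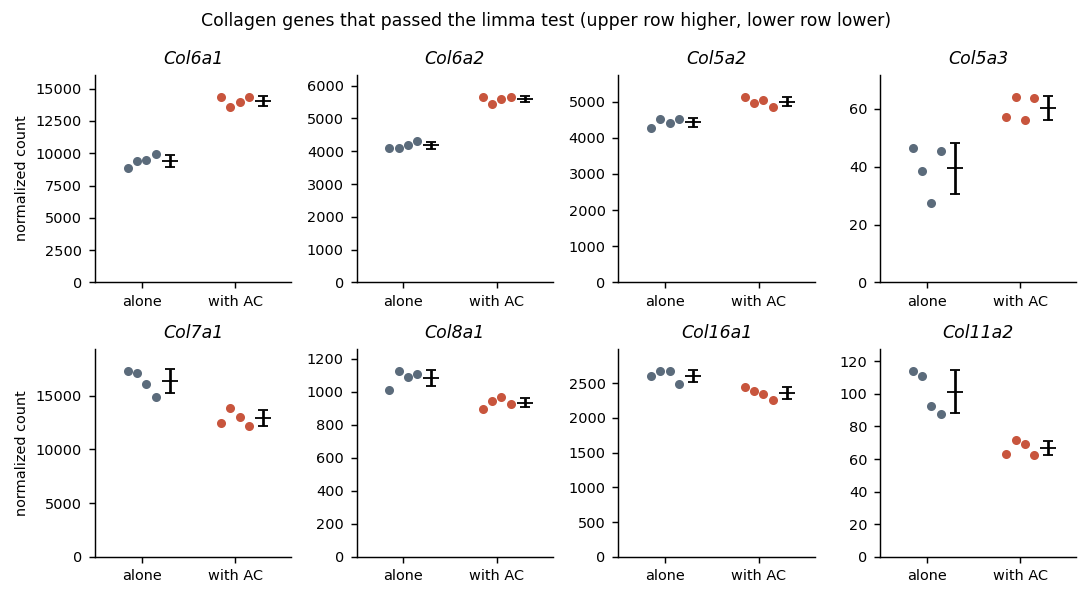
Normalized counts per library (points, in order of library number within a group) with mean and SD (bars, n = 4) for phagocytes alone and with apoptotic cells (AC), in the 8 collagen genes called by limma. In each of the 8 panels the groups do not overlap, and every axis starts at 0, so that the rise of Col6a1 from 9418 to 14056 can be set beside the fall of Col16a1 from 2608 to 2356.

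Col7a1, whose product forms homotrimers that make up anchoring fibrils, fell. It stood at 17289, 17156, 16118 and 14854 normalized counts in cells alone and at 12485, 13873, 13001 and 12221 in co-cultures. Alone library 4 was the lowest of its group and still above the highest co-culture library, and the mean went from 16354 ± 1129 to 12895 ± 728 (SD, n = 4 per group), a log2 change of -0.34 (95% interval -0.46 to -0.22, limma adjusted p = 0.00338). The call held without any 1 library (adjusted p = 1.14e-06 to 0.0184).

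Within the collagen reads, the shares of Col7a1 and Col6a1 moved in opposite directions. All collagen genes together took 0.174 to 0.189% of the reads of a library alone and 0.186 to 0.193% with apoptotic cells, ranges that overlap. Of the collagen reads, Col7a1 took 39.8, 36.6, 35.9 and 33.6% in the alone libraries and 26.2, 28.7, 27.2 and 26.1% in the co-cultures. The share of Col6a1 was 20.3, 20.1, 21.1 and 22.5% alone and 30.1, 28.0, 29.2 and 30.7% with apoptotic cells. The groups did not overlap for either gene. These are shares of reads, which depend on transcript length as well as on the number of transcripts. Shares of a fixed total are tied, so a rise of Col6a1 by itself lowers the shares of the other collagens. The shares restate the counts of both genes given above and are not a further result.

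**Figure D3:**
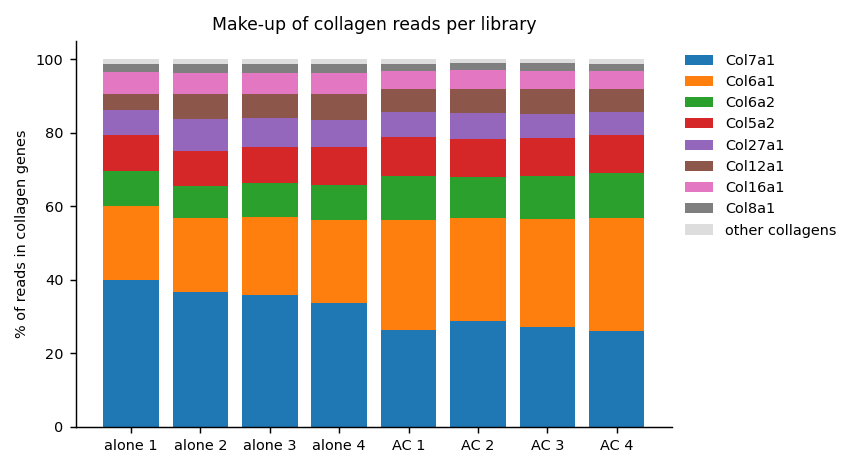
Share of each collagen gene in the collagen reads of a library (stacked bars, percent), for alone libraries 1 to 4 and co-culture (AC) libraries 1 to 4. The segment of Col7a1 runs from 33.6 to 39.8% alone and from 26.1 to 28.7% with apoptotic cells, and that of Col6a1 from 20.1 to 22.5% and from 28.0 to 30.7%.

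Among the fibrillar collagens, 2 of 5 tested genes rose and 1 fell, beside 6.36% of all tested genes higher and 5.31% lower. Col5a2 encodes a chain of collagen V, a minor fibrillar collagen that starts fibrils and limits their width. It stood at 4259.7, 4515, 4409 and 4513 normalized counts alone and at 5134, 4957, 5041 and 4856 with apoptotic cells. All 4 co-culture libraries were above the alone libraries by a small margin, with means of 4424 ± 120.5 and 4997 ± 118 (SD, n = 4 per group) and a log2 change of 0.18 (SE 0.03, limma adjusted p = 0.00786). This call held without any 1 library (adjusted p = 7.31e-05 to 0.0383). Its common partner Col5a1 was not analysed here.

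Col5a3, a further collagen V chain, read 46.5, 38.4, 27.4 and 45.5 normalized counts alone and 57.3, 64.1, 56.1 and 63.6 with apoptotic cells. Alone library 3 was the lowest and widened the spread of its group, at 39.4 ± 8.82 against 60.3 ± 4.19 (SD, n = 4 per group; log2 change 0.63, SE 0.17, limma adjusted p = 0.0355). The threshold was missed without alone library 2 or 3 or any of the co-culture libraries (adjusted p = 0.0617 to 0.0989).

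Col11a2, a chain of collagen XI, which sits inside the fibrils of cartilage and other tissues, read 113.9, 110.9, 92.4 and 87.9 normalized counts alone. With apoptotic cells it read 63.2, 71.9, 69.2 and 62.6, so that each co-culture library was below each alone library. The means were 101 ± 13.1 and 66.7 ± 4.55 (SD, n = 4 per group), a log2 change of -0.59 (SE 0.11, limma adjusted p = 0.00801), and the call held without any 1 library (adjusted p = 0.00267 to 0.0321). Its partner Col11a1 had a mean of 1.66 normalized counts and was not tested.

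Col27a1, a fibrillar collagen of cartilage and developing tissues, stood at 2934, 3959, 3545 and 3315 normalized counts alone and at 3151, 3440.1, 3120.3 and 2969.6 with apoptotic cells. Alone library 1 was the lowest of all 8 libraries and alone libraries 2 and 3 were the highest, so the groups overlapped (log2 change -0.11, 95% interval -0.29 to 0.07, limma adjusted p = 0.412). Without alone library 1 the log2 change was -0.18 (SE 0.05) and passed (adjusted p = 0.00368), as it did with array weights (adjusted p = 0.0265), with 0.00368 and 0.731 as the lowest and highest adjusted p of its alternatives. Col3a1, a major fibrillar collagen of elastic tissues, stood at 14.4 ± 6.35 and 20.5 ± 2.80 normalized counts (SD, n = 4 per group), with a log2 change of 0.57 and a wide 95% interval of -0.06 to 1.19 (limma adjusted p = 0.229).

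The collagen I genes, which define the matrix of most fibroblasts, were at trace level in these cells. Col1a1 had 4 reads in the 8 libraries together and Col1a2 had 10, with means of 0.50 and 1.23 normalized counts. The cartilage collagen Col2a1 had 35 reads. None of these 3 genes reached the filter.

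In the network collagens, 1 of 2 tested genes fell and none rose, beside 5.31% of all tested genes lower. Col8a1, a short-chain collagen that forms hexagonal lattices in vessel walls and in the cornea, stood at 1013, 1126, 1091 and 1107 normalized counts alone and at 898, 945, 966 and 929 with apoptotic cells. Alone library 1 was the lowest of its group and above every co-culture library, and the means were 1084 ± 49.3 and 934 ± 28.9 (SD, n = 4 per group; log2 change -0.21, SE 0.05, limma adjusted p = 0.0147). The threshold was missed without co-culture library 1 (adjusted p = 0.0566, the highest of its alternatives, which began at 4.63e-05). Its partner Col8a2 had a mean of 0.50 normalized counts.

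The collagen IV chains of basement membranes were low in these cells. Col4a1 had a mean of 10.3 normalized counts, just inside the filter, and Col9a3, with a mean of 8.16, was the member just outside it. Col4a1 stood at 9.86 ± 3.03 and 10.7 ± 3.29 normalized counts (SD, n = 4 per group; log2 change 0.10, 95% interval -0.55 to 0.75, limma adjusted p = 0.849), and its sign turned without alone library 4 (-0.08). Leaving out alone library 2, alone library 3 or co-culture library 1 put it below the filter. Its trimer partner Col4a2 had a mean of 0.51 and Col4a6 one of 4.58 normalized counts. A row listed under a LOC number that RefSeq names Col4a3 had no reads.

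FACIT collagens do not form fibrils themselves but lie on the surface of fibrils made by other types. Col16a1 fell, from 2597, 2673, 2673 and 2489 normalized counts alone to 2446, 2389.6, 2337 and 2251 with apoptotic cells. The gap between the groups was narrow, with alone library 4 and co-culture library 1 the nearest, and the means were 2608 ± 86.9 and 2356 ± 82.9 (SD, n = 4 per group; log2 change -0.15, SE 0.04, limma adjusted p = 0.0363). The threshold was missed without alone library 2 or 3 or any of the co-culture libraries (adjusted p = 0.0571 to 0.112).

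Col12a1, a FACIT collagen of tissues under tension, stood at 1881, 3292, 2846 and 3084 normalized counts alone and at 2972, 3233, 3224 and 2941 with apoptotic cells. Alone library 1 was far below the other 7 libraries, which overlapped. The log2 change was 0.19 (95% interval -0.13 to 0.50, limma adjusted p = 0.434), and 0.01 (SE 0.04, adjusted p = 0.891) without that library. The SD of the log2 values was 0.36 among the alone libraries and 0.07 among the co-cultures.

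**Figure D4:**
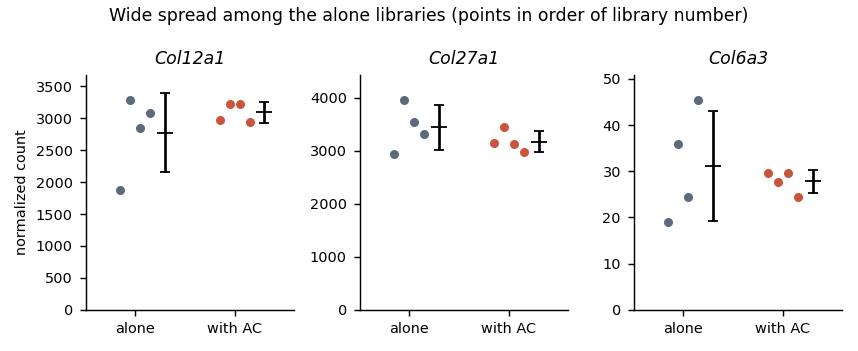
Normalized counts per library (points, in order of library number within a group) with mean and SD (bars, n = 4) of Col12a1, Col27a1 and Col6a3 for phagocytes alone and with apoptotic cells (AC). Alone library 1 is the lowest point of each panel, at 1881, 2934 and 19.0.

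Alone library 1 was the lowest alone library for 8 of the 15 tested collagens and the highest for 3. Of all tested genes, it was the lowest alone library for 39.6% and the highest for 39.4%. Its median deviation from the mean of the other alone libraries was -0.12 on the log2 scale over the tested collagens and 0.006 over all tested genes. The 8 called collagens kept their direction without it, with log2 changes of 0.55 for Col6a1, 0.41 for Col6a2, 0.16 for Col5a2, 0.71 for Col5a3, -0.31 for Col7a1, -0.25 for Col8a1, -0.15 for Col16a1 and -0.53 for Col11a2.

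The membrane-anchored Col17a1 and the proteoglycan Col18a1 did not pass. Col17a1, a transmembrane collagen of hemidesmosomes, stood at 102 ± 13.2 and 110.5 ± 11.2 normalized counts (SD, n = 4 per group; log2 change 0.11, 95% interval -0.14 to 0.36, limma adjusted p = 0.551). Col18a1, the basement membrane proteoglycan from which endostatin is cut, had the smallest SE of the uncalled members, at 225 ± 7.79 and 222 ± 6.48 normalized counts (log2 change -0.02, 95% interval -0.15 to 0.11, limma adjusted p = 0.859). Its sign turned without alone library 4 (0.004).

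The 18 collagens with reads below the filter had means of 0.138 to 8.16 normalized counts and 1 to 65 reads in the 8 libraries together, and in all 18 the groups overlapped. Col13a1, Col14a1, Col19a1, Col22a1 and Col26a1 had 0 of 201 M reads, which allows up to 3 reads, or 0.0149 per M; this limit covers counting error only.

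The genes that make, bind or degrade collagen were read from 10 lists, of which 92 genes were tested. Of these, 8 rose and 5 fell by limma, 14.1% of them against 11.7% of all tested genes, with a median log2 change of 0.04. Without alone library 1, 16 rose and 18 fell, 37.0% of the 92 against 26.0% of all tested genes, and the 5 falls became 2 or 3 without alone library 3 or 4 or any of the co-culture libraries. For the counts per list that follow, 6.36% of all tested genes were higher and 5.31% lower. Collagen hydroxylation and glycosylation held 3 of the 8 rises and no fall among 9 tested genes. P4ha1, a catalytic subunit of the prolyl 4-hydroxylase that stabilises the triple helix, rose by 0.28 (SE 0.03) from a base of 5542 ± 194 normalized counts (SD, n = 4; limma adjusted p = 0.00071). The alternative subunit P4ha2 measured 615 ± 37.8 normalized counts alone and 786 ± 46.1 with apoptotic cells (SD, n = 4 per group; log2 change 0.35, SE 0.06, limma adjusted p = 0.00417). Plod2, the lysyl hydroxylase of the collagen telopeptides, named as a member chosen regardless of its values, measured 3172 ± 222 normalized counts alone and 3721 ± 79.6 with apoptotic cells (log2 change 0.23, SE 0.05, limma adjusted p = 0.0134), which missed the threshold without co-culture library 3 (adjusted p = 0.0519). P4hb, the protein disulfide isomerase that serves as the shared beta subunit of prolyl 4-hydroxylase, stood at 29807 ± 519 and 30335 ± 321 normalized counts (log2 change 0.03, limma adjusted p = 0.583).

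Among 16 tested genes of procollagen folding and export, 1 rose and 1 fell. Creb3l1, a membrane-bound transcription factor that is cleaved to switch on collagen I and secretory genes, measured 1361 ± 130 normalized counts alone and 1701 ± 26.4 with apoptotic cells (SD, n = 4 per group; log2 change 0.33, SE 0.06, limma adjusted p = 0.00869). Fkbp14, a prolyl isomerase of the endoplasmic reticulum, fell by 0.14 (SE 0.04, limma adjusted p = 0.0268), which missed the threshold without alone library 3 or 4 or any of the co-culture libraries (adjusted p = 0.0532 to 0.091). Serpinh1, the collagen chaperone HSP47, stood at 23686 ± 247 and 24260 ± 383 normalized counts (log2 change 0.03, limma adjusted p = 0.443). Of 5 tested genes of propeptide processing, Pcolce, an enhancer of procollagen C-proteinase, fell by 0.13 (SE 0.04, limma adjusted p = 0.0437), which missed the threshold without alone library 3 or 4 or any of the co-culture libraries (adjusted p = 0.0813 to 0.13). The proteinase Bmp1 stood at 2620 ± 170 and 2440 ± 67.1 normalized counts (limma adjusted p = 0.212).

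None of 4 tested lysyl oxidase genes, which crosslink collagen, passed by limma, edgeR or DESeq2, and 0 had an unadjusted p under 0.05. Loxl2 stood at 61.8 ± 2.45 and 54.8 ± 9.52 normalized counts (limma adjusted p = 0.403), and Lox itself had 1 read in the 8 libraries. The same 3 tools called 0 of 5 tested collagen receptors, of which 0 had an unadjusted p under 0.05, and without alone library 1, where 26.0% of all genes were called, limma called 2 of them lower. The receptor tyrosine kinase Ddr2 stood at 6344 ± 1319 and 6304 ± 232 normalized counts (log2 change 0.02, limma adjusted p = 0.946), and without alone library 1 it fell by 0.14 (adjusted p = 0.00283, the lowest of its alternatives, which reached 0.995). The integrin subunit Itgb1 stood at 20828 ± 419 and 21741 ± 367 normalized counts (log2 change 0.06, limma adjusted p = 0.198), and Mrc2, which internalises collagen, at 0.93 and 0.74. Of 9 tested genes of proline and glycine supply, 0 passed by limma, edgeR or DESeq2, and 1 higher and 1 lower had an unadjusted p under 0.05. The unadjusted counts of these lists cannot be set beside a share of all tested genes, which is not given here for that threshold.

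Collagen-binding matrix proteins held 2 rises and 1 fall among 11 tested genes. Thbs1, thrombospondin 1, measured 4483 ± 396 normalized counts alone and 6804 ± 96.3 with apoptotic cells (SD, n = 4 per group; log2 change 0.61, SE 0.06, limma adjusted p = 0.000148). Matn2, a matrilin that bridges matrix filaments, rose by 0.52 (SE 0.09, limma adjusted p = 0.00386), named after its values were seen. Dcn, decorin, a small proteoglycan that coats collagen fibrils, measured 953 ± 41.0 normalized counts alone and 767 ± 24.2 with apoptotic cells (log2 change -0.31, SE 0.05, limma adjusted p = 0.0022). Fn1, fibronectin, which collagen fibrils need for their assembly, stood at 31773 ± 6084 and 34175 ± 1246 normalized counts (log2 change 0.13, limma adjusted p = 0.524), a sign that turned without alone library 1 (-0.02). Sparc, a chaperone-like collagen binder, stood at 7773 ± 239 and 7328 ± 56.4 (log2 change -0.08, limma adjusted p = 0.109).

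Of 10 tested basement membrane partners, the laminin chain gene Lama3 rose by 0.30 (SE 0.06, limma adjusted p = 0.0129) and none fell. Lamb1 and Lamc1, the other laminin chains named regardless of their values, stood at 10094 ± 347 and 10388 ± 250 and at 11339 ± 1838 and 12731 ± 366 normalized counts (limma adjusted p = 0.468 and 0.278). Without alone library 1, 2 genes of this list rose and 4 fell, beside the 26.0% of all genes called in that fit. In the list of collagen degradation, 2 of 8 tested genes fell and none rose, beside 5.31% of all tested genes lower. Pepd, the dipeptidase that frees proline from collagen breakdown products, measured 494 ± 29.0 normalized counts alone and 380 ± 21.3 with apoptotic cells (SD, n = 4 per group; log2 change -0.38, SE 0.06, limma adjusted p = 0.00365). Timp2, an inhibitor of matrix metalloproteinases, fell by 0.17 (SE 0.04, limma adjusted p = 0.0137), which missed the threshold without library 3 of either group or library 4 of the co-cultures (adjusted p = 0.0516 to 0.0521). Mmp14, a membrane-bound collagenase, stood at 2231 ± 171 and 2430 ± 30.6 normalized counts (log2 change 0.13, limma adjusted p = 0.156), and Mmp2 had 1 read in the 8 libraries.

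Among 15 tested genes of transcription inputs, 1 rose and none fell. Ltbp1, which tethers latent TGF-beta to the matrix, rose by 0.18 (SE 0.04, limma adjusted p = 0.0196), which missed the threshold without library 3 or 4 of either group or library 1 of the co-cultures (adjusted p = 0.0508 to 0.0723). Tgfb1, the TGF-beta ligand that drives collagen transcription in fibroblasts, stood at 1696 ± 101 and 1742 ± 69.4 normalized counts (SD, n = 4 per group; log2 change 0.04, limma adjusted p = 0.648).

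**Figure D5:**
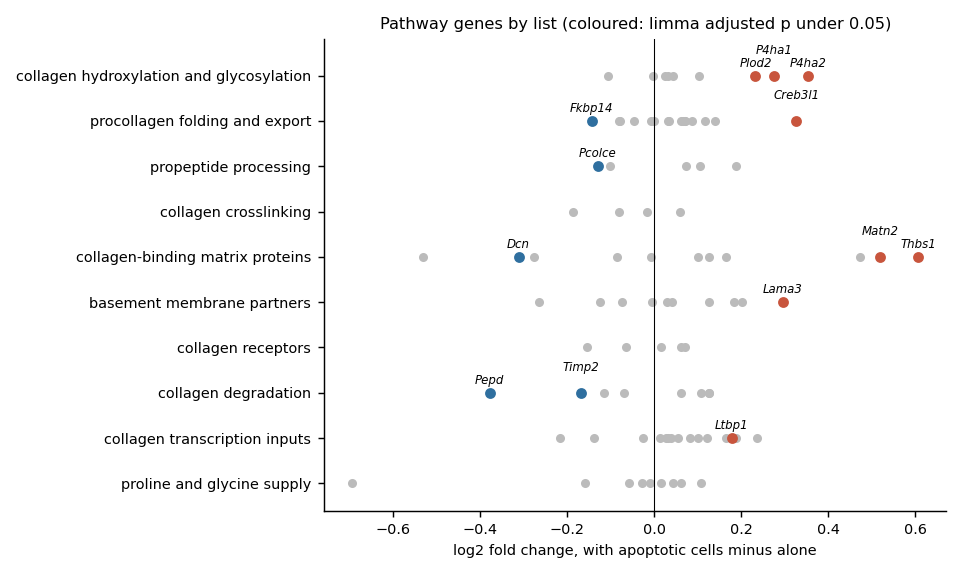
Log2 change, with apoptotic cells minus alone, of the tested genes of 10 lists of collagen-related genes (1 point per gene, coloured and named where the limma adjusted p was under 0.05). Thbs1 (0.61) and Matn2 (0.52) lie farthest to the right among called genes, Pepd (-0.38) farthest to the left, and no point is coloured for crosslinking, receptors or proline and glycine supply.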

How the data were processed

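RNA of 8 LR73 libraries was analysed, 4 per group. FastQC, STAR, featureCounts and DESeq2 are named in the submitters' processing notes, and their versions, the genome build and the strand setting are not given in the sources used. The authors deposited a per-library signal for each gene, which is a count divided by a size factor: 100% of values were whole reads within a tolerance of 0.01 reads. Deposited log2 fold changes, p-values and a test score, per the file headers, were used for comparison only. A row without a name held 0.14 to 0.176% of reads and was left out.

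Log2(normalized count + 1) was tested with limma-trend (limma 3.58.1, R 4.3.3) over 13494 genes with a mean of at least 10, group as the only term, Benjamini-Hochberg adjusted p under 0.05. This scale understates changes of low genes. edgeR 4.0.16 and DESeq2 1.42.0 on the recovered reads were alternatives. Figures were drawn with matplotlib 3.10.9. RefSeq's gene table for the species (CriGri-PICRH-1.0) held 34 of the 38 symbols.

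Members, lists and tests were chosen with earlier results of these data known. Every tested collagen is named, and of each pathway or marker list the 2 called genes with the smallest adjusted p and a set chosen regardless of values, of which Nid1 and Ccn2 were not analysed here. How reads that fit both species were counted is not stated, so some human reads may lie under hamster genes.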

Additional observations from a re-analysis of the deposited data

Results flagged for a closer look

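In 44 genes, the 15 tested collagens and 29 others, each group of 4 libraries was searched for a library far from the other 3, and 5 of 88 groups held one, where chance gives about 1 in 20. No collagen gene was among them. Alone library 1 was the lowest for Mmp14 (1978 normalized counts, others 2289 to 2349.7), Thbs1 (3891, others 4652 to 4731) and Timp2 (3405, others 3581 to 3608), and the highest for P4ha2 (671, others 593 to 599.8). Co-culture library 3 was the lowest for Serpinh1 (23691, others 24385 to 24510.0).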

How the results depend on the processing

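The 4 rises among collagens stayed within 3 to 4 over left-out libraries, and the 4 falls within 2 to 5, the lowest without co-culture library 1 and the highest without alone library 1. Pathway rises (8) became 15 with array weights (25.8% of all genes called) and 6 to 16 over left-out libraries, and pathway falls (5) became 13 with array weights, 2 with the replicate block (6.65% of all genes) and 2 to 18 over left-out libraries. Same-numbered deviations correlated at -0.03, 0.18, 0.12 and -0.26, and those of different numbers at -0.37 to 0.41. Whether the replicate numbers pair the libraries cannot be told from these values. The block lowered the calls over all genes from 1574 to 898 and those of the collagens to 3 higher and 3 lower (Col5a3, limma adjusted p = 0.0518, and Col16a1, limma adjusted p = 0.0636, were lost). The Col6a1 to Col6a2 log2 ratio difference of 0.16 had an adjusted exact permutation p of 0.0571 to 0.114 over left-out libraries. With 1 library left out, 0.0571 is the smallest p that this test can give, so none of those settings could pass. With the block the adjusted p was 0.25, and its sign flips cannot reach the threshold in 4 pairs either. With no filter on low values Col5a3 missed the threshold (adjusted p = 0.0585) and so did Pcolce (0.0671). Cd28 (0.0752, and 0.0691 with the block) and Cdh1 (0.0749, and 0.101 with the block) missed it too. Signs turned for uncalled genes: Col18a1 (-0.036 to 0.0043), Col4a1 (-0.079 to 0.279, from the 5 of 8 in which it passed the filter), Col6a3 (-0.289 to 0.117), Fn1 (-0.019 to 0.211) and Ddr2 (-0.145 to 0.103) over left-out libraries, and Ddr2 also with array weights (-0.108), DESeq2 (-0.00931) and edgeR under TMM (-0.0105) or median-of-ratios factors (-0.00996). The cause was not tested. Scaling by TMM moved the median of all genes by under 0.1 on the log2 scale. The log2 changes of Col3a1, Col4a1 and Col6a3, with 83 to 238 reads in all, had an SE of 0.24 to 0.29. The log2 SD alone and with apoptotic cells was 0.60 and 0.20 for Col3a1, 0.43 and 0.42 for Col4a1 and 0.54 and 0.13 for Col6a3, and the part of depth in the SE was not tested.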
